A study of Mus musculus with 6 samples.

Results

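The 3 related miRNA clusters miR-17-92, miR-106a-363 and miR-106b-25 were examined in the small RNA of thymic regulatory T (Treg) cells. The 10 genes Mir17, Mir18, Mir20a, Mir19b-1, Mir92-1, Mir20b, Mir92-2, Mir106b, Mir93 and Mir25 were taken from the 1241 features of the deposited miRNA table by a rule that used names and no values. Treg cells of wild-type (WT) mice and of miR-181a/b-1-/- (KO) mice, which lack Mir181a-1 and Mir181b-1, were compared with 3 libraries each. Mice of both groups were 7 weeks old, untreated as far as the labels go, and carried the strain label C5BL6/N. Per the methods, each library came from cells sorted out of 3 pooled thymi, so that a library is an average over animals. The labels and methods name the thymus as the source, whereas the results text of the study speaks of peripheral Treg cells.

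Libraries held 168293 to 307840 counts on genes, of which 1359 to 3422 fell on features of the miRNA table. The miRNA share was 1.11% to 1.52% of gene counts in WT and 0.697% to 1.11% in KO libraries. The deletion could not be checked from the targeted genes, because Mir181a-1 had 1 count in WT replicate 2 and none in the other 5 libraries, and Mir181b-1 had no count. The label Treg was met by its markers. All 10 genes of the Treg list (such as Foxp3 and Il2ra) had counts, Ctla4 with 1 count in WT replicate 3 and none in the other 5 libraries. Scaled to the library's gene counts as CPM, their sums were 1385 to 1473 CPM in WT and 1221 to 1604 in KO libraries. Of the markers of other cells, the 7 erythroid genes had no count and the myeloid list had 1 count in all. The B-cell list had counts on 2 of 5 genes, with Cd79a and Ms4a1 among those at 0. Its sums were 32.8 to 58.6 CPM in WT and 22.7 to 47.5 in KO libraries. Most of these counts were on Ighm, with 12, 9 and 8 in WT and 7, 8 and 5 in KO libraries. Cd79b had 1, 1 and 0 counts in WT and 1, 1 and 2 in KO libraries.

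As background, miR-17-92 is a cluster of miRNAs cut from a single primary transcript, Mir17hg, and miR-106a-363 and miR-106b-25 are its relatives from ancient duplications. miR-106b-25 lies within Mcm7, which encodes a subunit of the replicative helicase. A miRNA recognizes its targets mainly through the seed, bases 2 to 8 from its 5′ end, and the guides of the 3 clusters fall into the miR-17, miR-18, miR-19 and miR-92/25 seed families. Myc and E2F factors activate the clusters, and their products dampen Bcl2l11 and favor the growth and survival of lymphocytes.

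The 10 genes give 9 different mature guides, all of which were found in the RefSeq table (GRCm38.p6). They are printed because genes in different clusters make nearly or fully the same RNA, which bears on what a count for 1 gene means. Capitals mark the seed.
miR-17-5p: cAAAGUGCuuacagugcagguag
miR-20a-5p: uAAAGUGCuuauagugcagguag
miR-20b-5p: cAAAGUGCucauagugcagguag
miR-106b-5p: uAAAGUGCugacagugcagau
miR-93-5p: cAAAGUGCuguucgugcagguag
miR-18a-5p: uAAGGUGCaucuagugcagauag
miR-19b-3p: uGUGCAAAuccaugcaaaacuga
miR-92a-3p: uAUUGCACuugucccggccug
miR-25-3p: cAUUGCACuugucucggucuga

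The first 5 guides share the miR-17 seed, and miR-92a-3p and miR-25-3p share another. Counted from the 5′ end, miR-20b-5p of the X-linked cluster differs from miR-17-5p at 2 of 23 bases, U10C and C12U (the base of miR-17-5p first), both outside the seed. miR-92a-3p and miR-25-3p differ at 3 of the 21 bases compared. miR-92a-3p is made from both Mir92-1 on chromosome 14 and Mir92-2 on chromosome X, and miR-19b-3p from Mir19b-1 and Mir19b-2. A read of such a guide alone cannot be given to either locus. The RefSeq hairpins of the miR-92a pair show how far the identity goes, with the longest common stretch in capitals.
Mir92-2: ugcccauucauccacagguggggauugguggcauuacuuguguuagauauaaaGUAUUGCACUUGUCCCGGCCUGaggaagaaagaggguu
Mir92-1: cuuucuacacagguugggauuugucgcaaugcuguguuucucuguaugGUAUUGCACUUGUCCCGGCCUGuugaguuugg

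The common stretch of 22 bases holds the whole of miR-92a-3p and 1 base before it, so that reads must extend beyond it, or come from the other arm, to be specific for a locus. Records set aside for aligning to several places made up 41.7% to 46.2% of each library. How many of them came from the clusters was not tested.

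Of the 10 genes, 3 had any count. Mir92-2 had 54 counts over the 6 libraries, Mir106b had 14 and Mir20b had 13, together 81 of 15741 miRNA counts. Mir17, Mir18, Mir20a, Mir19b-1 and Mir92-1, which are the members from miR-17-92 itself, had no count in any library, and neither had Mir93 or Mir25 of miR-106b-25. A count of 0 allows a share of up to 0.0877% to 0.221% of miRNA counts, depending on the library. These limits hold for single libraries, cover counting error only and limit the counts given to a gene, not its expression, since reads of these genes may not have been counted at all. The cluster genes outside the 10 had few counts, with 4 for Mir363, 2 for Mir106a, 1 each for Mir18b and Mir19b-2 and none for Mir19a.

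The genes with and without counts differed in their place in the annotation (GENCODE vM21, GRCm38). All 7 genes at 0 lay wholly inside an exon of another gene on the same strand. Mir17 (chr14:115043671-115043754), Mir18 (chr14:115043851-115043946), Mir20a (chr14:115044157-115044263), Mir19b-1 (chr14:115044305-115044391) and Mir92-1 (chr14:115044427-115044506) fell in a single exon, 3457 bases long, of the noncoding host gene Mir17hg. Mir93 (chr5:138165523-138165610) and Mir25 (chr5:138165321-138165404) fell in an exon, 665 bases long, of a retained-intron transcript of Mcm7. Mir106b (chr5:138165737-138165818) is their neighbor and had counts, and its hairpin lies 20 bases beyond that exon. Mir20b (chrX:52742113-52742192) and Mir92-2 (chrX:52741838-52741928) overlapped no exon of another gene. Over all 15 genes of the clusters, the 8 inside such an exon had no count and the other 7 had at least 1.

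**Figure D1:**
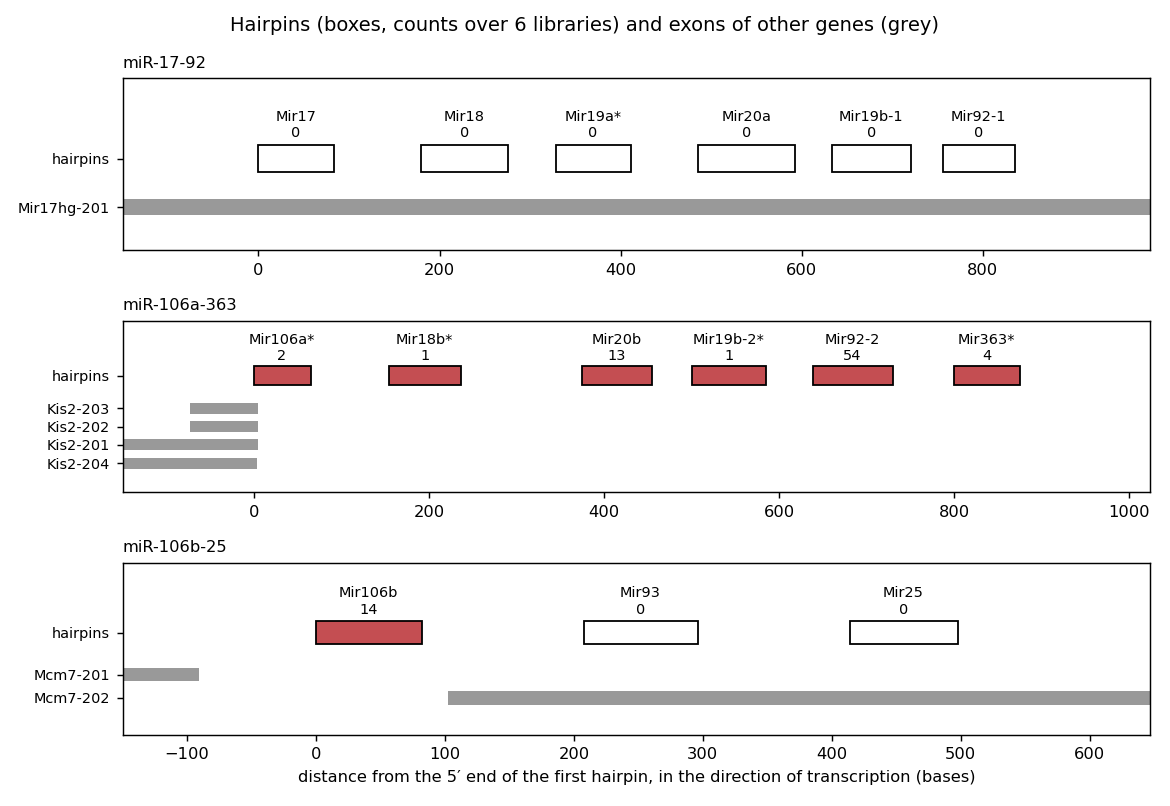
Position of each hairpin (box, with its counts summed over 6 libraries) along its cluster in bases from the first hairpin, and exons of other genes on the same strand (grey, 1 row per transcript). Filled boxes have counts, and an asterisk marks a cluster gene outside the 10. Every hairpin above a grey bar along its whole length is at 0, and Mir106b stands clear of the Mcm7 exon.

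This was not particular to the 3 clusters. Among the 1178 features of the table that GENCODE classes as miRNA genes, 163 lay wholly inside a same-strand exon of a gene whose identifier and version are in the count files, and 0 of them had a count in any library. Without the genes of the clusters this was 0 of 155. Of the 818 features that overlapped no exon, 144 (17.6%) had a count. Features wholly inside an exon of a gene whose identifier and version are not in the files had a count in 4 of 22 cases (18.2%), those partly inside an exon in 14 of 88 cases (15.9%), and those overlapping an exon on the opposite strand only in 10 of 87 cases (11.5%). The counting program HTSeq gives a read that falls on several genes to none of them unless told otherwise, and 20.4% to 24.0% of each library's records were in that ambiguous class. The setting used is not given in the sources used here, and whether reads of the 7 genes are in that class was not tested. A count of 0 for these genes can therefore not be read as absence of expression.

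**Figure D2:**
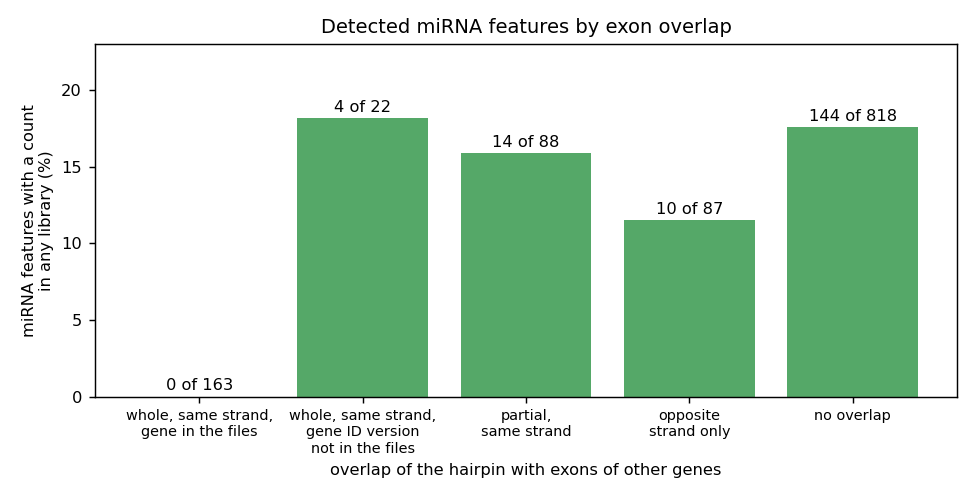
Share of miRNA features with at least 1 count in any of the 6 libraries (%), by how the hairpin overlaps exons of other genes; numbers give features with a count of all in the class. The class of the 7 genes at 0 shows a count for 0 of 163 features, against 144 of 818 without overlap.

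Mir17hg, the host of miR-17-92, had 1 count in each of WT replicates 1 and 3 and none elsewhere. Kis2, next to miR-106a-363, had 1 count in WT replicate 1. Mcm7 had 5, 3 and 10 counts in WT and 3, 1 and 6 in KO libraries, and the groups overlapped.

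Mir92-2, which makes miR-92a, was the most abundant of the genes with counts and ranked 23 among the miRNA features by mean share. It had 9, 12 and 11 counts in WT and 11, 1 and 10 counts in KO libraries, or 0.267%, 0.391% and 0.406% of miRNA counts against 0.606%, 0.0736% and 0.292%. WT libraries lay close together, whereas KO replicate 1 was above and KO replicate 2 below all of them. WT cells had a mean share of 0.355% ± 0.0762 (SD, n = 3), KO cells one of 0.324% ± 0.268 (SD, n = 3), and the difference was within the spread between libraries (exact two-sided permutation test, p = 1). The single count of KO replicate 2 has a 95% Wilson interval of 0.0130% to 0.416%, which takes in the share of each WT library. In bulk RNA, fewer cells that make a miRNA cannot be told apart from less of it per cell.

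Mir92-2 was the only one of the 10 genes with at least 10 counts in at least 3 libraries, the limit for the main test. Among the 23 features over this limit its log2 fold change was -0.10 (SE 0.59) with an adjusted p of 0.933 (edgeR quasi-likelihood test, Benjamini-Hochberg). Thus none of the genes passed, where 4.35% of the features tested did. In the fit of all 1391 genes over the limit, where 0% passed, the log2 fold change was -0.46 (SE 0.51, adjusted p = 0.980 with edgeR). At an unadjusted p under 0.05, 37 genes were lower and 35 higher in that fit by edgeR, and 11 and 13 by DESeq2, with none of the 10 among them (edgeR called 5.18% of the genes in this way). The change of scale alone moved the 23 miRNA features by a median of -0.37 on the log2 scale. The sign for Mir92-2 rested on 1 library, since without KO replicate 2 the log2 fold change was 0.29 among miRNA features and 0.0076 among all genes.

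Mir20b of the same X-linked cluster, which makes a guide of the miR-17 family, had a single count over the WT libraries. It had 0, 1 and 0 counts in WT and 1, 4 and 7 counts in KO libraries, or 0%, 0.0326% and 0% of miRNA counts against 0.0551%, 0.294% and 0.205%. All KO shares were above all WT shares, although WT replicate 2 and KO replicate 1 both held a single count and were set apart only by their totals. The mean in WT cells was 0.0109% ± 0.0188 (SD, n = 3) and that in KO cells 0.185% ± 0.121 (SD, n = 3), with p = 0.1 in the exact two-sided permutation test, the smallest that 3 against 3 libraries allow. KO libraries were all above WT libraries for 2.25% of the 178 features with a count, for 6.67% of those with at least 10 counts in all, and for 9.09% of the 22 features with 10 to 20 counts. Summed over libraries, 1 of 9146 miRNA counts in WT stood against 12 of 6595 in KO cells, a ratio of 16.6 with an exact 95% counting interval of 2.46 to 711. Without WT replicate 1 the ratio was 10.5, with a lower limit of 1.56, without KO replicate 3 the lower limit was 1.61, and without WT replicate 2 no WT count was left and no ratio is given. Against all gene counts, the ratio was 12.3 (1.83 to 527). These intervals leave out the spread between mice.

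Without a filter, over the 178 miRNA features with a count, Mir20b had a log2 fold change of 3.27 (SE 1.26) and an unadjusted p of 0.00952 in edgeR. It missed the threshold after adjustment, at 0.565, with a range of 0.263 to 0.871 over the other settings. Only 3 of the 10 genes were in this fit, and Mir20b was the 1 with an unadjusted p under 0.05. Of the 178 features, 5.06% had one, 1.69% in the same direction, and 0% passed after adjustment. DESeq2 gave 3.67 and an unadjusted p of 0.0245, where 1.12% of the features were higher at this threshold. The log2 fold change was 5.09 without WT replicate 2, the only WT library with a count, and depends there on how a group at 0 is treated. Markers of double-positive thymocytes, an earlier stage that the sort for Treg cells, reanalyzed for purity per the methods, would remove, summed to 4.10 to 26.7 CPM in WT and 26.0 to 30.8 in KO libraries, with counts on 5 of 8 genes and Rag2 and Ptcra among those at 0. Cd8a had no count in WT and 1 count in each KO library, and Rag1 had none in WT and 1 count in each of KO replicates 2 and 3. Cd8b1 had 0, 3 and 1 counts in WT and 2, 2 and 2 in KO libraries. Dntt had 1, 1 and 0 counts in both groups, and Arpp21 had 1, 2 and 0 in WT against 1, 1 and 4 in KO libraries. The part of these markers in the result was not tested.

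Mir106b, the first gene of miR-106b-25 and another source of the miR-17 seed, had 2 counts in each WT library and 1, 3 and 4 counts in KO libraries. Its shares were 0.0594%, 0.0652% and 0.0738% in WT and 0.0551%, 0.221% and 0.117% in KO libraries. KO replicate 1 lay below all WT libraries and the other two above them. The mean in WT cells was 0.0661% ± 0.00727 (SD, n = 3) and that in KO cells 0.131% ± 0.0837 (SD, n = 3) (exact two-sided permutation test, p = 0.4). Summed over libraries, 6 of 9146 miRNA counts in WT stood against 8 of 6595 in KO cells, a ratio of 1.85. Its counting interval of 0.563 to 6.47 holds values below and above 1, so that neither direction is set at this depth. Without a filter, the log2 fold change was 0.53 (SE 1.0, adjusted p = 0.861 with edgeR).

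**Figure D3:**
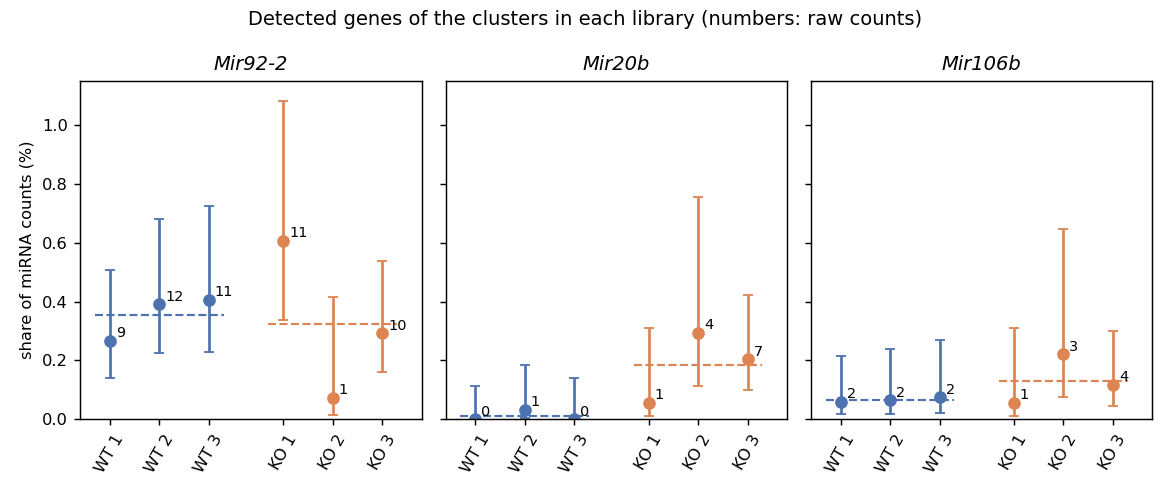
Share of miRNA counts (%) of the 3 genes with counts in each WT and KO library, with 95% Wilson intervals for counting error, raw counts beside the points and group means as dashed lines. Mir92-2 ranges from 0.0736% to 0.606% within KO, Mir20b is at 0 in 2 WT libraries and at 0.0551% to 0.294% in KO, and the intervals of Mir106b overlap in all 6 libraries.

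**Figure D4:**
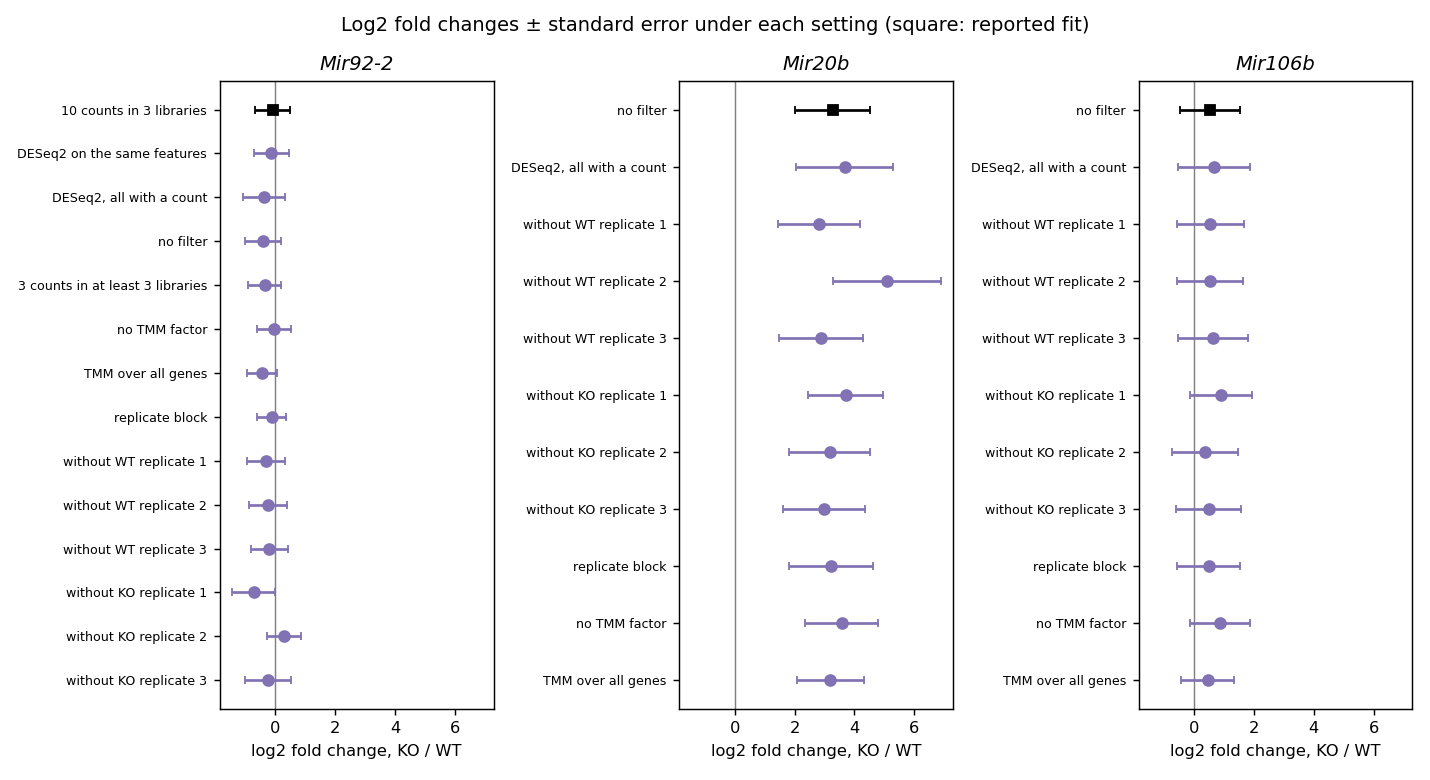
Log2 fold change of KO over WT with its standard error for the 3 genes under each setting of the filter, scaling, tool, replicate block and left-out library; the square is the value in the text. Mir92-2 changes sign without KO replicate 2, and Mir20b stays between 2.83 and 5.09.

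Summed by cluster over the 10 genes, Mir20b and Mir92-2 of miR-106a-363 took 0.366% ± 0.0857 (SD, n = 3) of the miRNA counts of WT cells and 0.509% ± 0.147 (SD, n = 3) of those of KO cells. All 6 genes of that cluster together took 0.399% and 0.581%. Of all gene counts in place of miRNA counts, Mir20b and Mir92-2 together took 47.9 ± 8.99 CPM (SD, n = 3) in WT and 50.7 ± 23.2 CPM (SD, n = 3) in KO cells, which brought the ratio of the KO to the WT mean from 1.39 to 1.06. KO replicate 2 had 1 count for Mir92-2 and 4 for Mir20b, and with 0.368% its sum was within the WT range of 0.267% to 0.424%. In KO replicate 1, 11 of 12 counts were for Mir92-2.

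Counts are on whole hairpins and do not tell the arms apart. By seed family of the guide, again over the 10 genes, the genes of miR-17 guides with counts (Mir20b and Mir106b) had 2, 3 and 2 counts in WT and 2, 7 and 11 counts in KO libraries, or 0.0770% ± 0.0194 and 0.316% ± 0.202 of miRNA counts (SD, n = 3 each). Among the 10 genes, Mir92-2 was the one gene of the miR-92/25 family with counts, and those of the miR-18 and miR-19 families were at 0. All 10 genes together took 0.327%, 0.489% and 0.480% of miRNA counts in WT and 0.717%, 0.589% and 0.614% in KO libraries, from 39 and 42 counts. Of all gene counts, they took 49.5, 66.8 and 53.4 CPM in WT and 77.2, 41.0 and 68.2 CPM in KO libraries, so that the groups were apart as shares of miRNA counts and overlapped as shares of gene counts. KO replicates 1 and 2 had the lowest miRNA totals, with 1814 and 1359 counts. No p is given for these sums, since the genes were chosen together.

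Per 100 bases of hairpin and over all 6 libraries, Mir92-2 stood at 0.373% ± 0.194, Mir20b at 0.122% ± 0.153 and Mir106b at 0.120% ± 0.0779 of miRNA counts (SD, n = 6). Mir92-2 was above Mir20b in 5 of 6 libraries, but the ranges of mean and SD overlapped. Over all 6 libraries the ranges of Mir20b and Mir106b overlapped as well, but their order split by genotype, with Mir20b below Mir106b in the 3 WT libraries and above it in the 3 KO libraries. In KO replicate 1 both had 1 count, and Mir20b was above by its shorter hairpin. No test of this order was made. The tested features most like Mir92-2 across the 6 libraries were Mir150, Mirlet7a-2 and Mirlet7g, with Pearson's r of 0.85, 0.84 and 0.62 on log2 normalized counts. Likeness rested on KO replicate 2, without which r was 0.13, 0.46 and -0.77. The points share libraries and their scaling.

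Genes upstream and downstream of the clusters gave no call. Among 16 regulators and cell-cycle genes, 15 had a count and 2 reached the limit for the test. Ccnd2, a D-type cyclin, had 113, 124 and 115 counts in WT and 102, 113 and 123 in KO libraries (log2 fold change 0.04, SE 0.25, adjusted p = 0.997 with edgeR), and Ccnd3 had a log2 fold change of -0.36. Myc, the best known activator of miR-17-92, had 9, 7 and 11 counts against 6, 7 and 10, which overlap. Of the 12 genes of this list with at least 10 counts in all, 0 had every KO library above every WT library as a share of gene counts, beside 4.63% of all genes with as many counts, and 1 had every KO library below, beside 5.12%. This was Top2a, the DNA topoisomerase of dividing cells, with 9, 9 and 10 counts in WT and 5, 4 and 2 in KO libraries, which was under the limit for the test and was chosen after its values were seen. Of the 9 genes of miRNA processing, only Ago2, the slicing Argonaute, was tested (log2 fold change -0.45, SE 0.36), and Dgcr8 and Ago4 were at 0.

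All 14 textbook targets had counts and 7 were tested, of which 0 passed in either direction in edgeR, as did 0% of all 1391 genes, and 0 had an unadjusted p under 0.05, beside 5.18% of all genes. Their log2 fold changes were positive for 2 and negative for 5 genes with a median of -0.46, beside 686 and 705 and a median of -0.0040 over all genes. Tgfbr2, a receptor chain for TGF-β, had 13, 11 and 5 counts in WT and 13, 15 and 18 in KO libraries, with a log2 fold change of 0.73 (SE 0.38, adjusted p = 0.974 with edgeR). Tnfaip3, an inhibitor of NF-κB signaling, had 14, 11 and 21 counts against 12, 5 and 10, with -0.67 (SE 0.39, adjusted p = 0.979 with edgeR). Bcl2l11, which encodes the death factor Bim, had 1, 4 and 1 counts against 3, 3 and 3. Small RNA libraries hold fragments of messenger RNA, so these are not measures of intact transcripts.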

How the data were processed

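Small RNA of sorted thymic Treg cells was sequenced by the study with the SMARTer smRNA-Seq kit, from 3 WT and 3 miR-181a/b-1-/- samples. After adapter trimming with Flexbar 3.4 and removal of ribosomal RNA with Bowtie 2, the authors used STAR for alignment and HTSeq for counting, and deposited raw counts per gene for each sample. The submitters' processing notes name GRCm38.p6. The counting mode is not given in the sources used here. Library sizes and tests left out the records without a gene (75.7% to 80.3% of a library). The authors' miRNA table holds a signal column per sample (counts divided by a size factor), used only to check the samples, and the output of their own DESeq2 comparison (log2 fold changes, p-values and a score), which was not used. Of 54547 gene identifiers, 51550 match GENCODE vM21 with their version.

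The rule for the 10 genes used names and no values, but it and all gene lists were chosen with earlier results of these data known. All 10 genes, the other cluster genes, the hosts and the listed genes could be named, plus the 3 features most like Mir92-2 by Pearson's r (log2 of TMM-normalized counts plus 0.5). Counts were tested with edgeR 4.0.16 in R 4.3.3 (quasi-likelihood test, TMM, Benjamini-Hochberg, no block) on features of the miRNA table, and on all genes, with at least 10 counts in at least 3 libraries. Members under this limit were fitted without a filter. Shares were compared with exact permutation tests and Wilson intervals in SciPy 1.17.1 and Python 3.11.15. Intervals and floors (3 counts) cover counting error only. Alternatives were DESeq2 1.42.0, other filters and scalings, each library left out, a replicate block and other denominators. The edgeR fit was tested on simulated data. Some listed genes are not reported here.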

Additional observations from a re-analysis of the deposited data

How the results depend on the processing

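With 0 to 12 counts per gene and library, these data cannot resolve moderate changes of Mir20b or Mir106b. For the genes at 0 inside host exons, a lack of expression cannot be told apart from reads that were not counted. Of the genes tested (Mir92-2 in filtered fits, with Mir20b and Mir106b where there was no filter; the 7 genes at 0 were in no fit), none passed an adjusted p of 0.05, lower or higher, in 13 alternatives among miRNA features and 9 among all genes with edgeR or DESeq2, and at an unadjusted p of 0.05 none did in either filtered fit. The limit of 10 counts in every library left no member to test. For Mir92-2, the log2 fold change was positive without KO replicate 2, at 0.29, at 0.11 without a filter and at 0.0076 among all genes. Leaving out each library gave -0.73 to 0.29 for Mir92-2 (-0.92 to 0.11 without a filter, -1.0 to 0.0076 among all genes), 2.83 to 5.09 for Mir20b and 0.35 to 0.89 for Mir106b. The KO minus WT difference in share ranged from 0.0667 to 0.214 percentage points for miR-106a-363 (0.143 with all libraries), 0.0199 to 0.103 for miR-106b-25, 0.139 to 0.341 for the miR-17 family (0.239 with all) and -0.172 to 0.0946 for the miR-92/25 family. As a share of all gene counts, the differences were 0.000286 for miR-106a-363, 0.000273 for miR-106b-25, 0.00176 for the miR-17 family and -0.00121 percentage points for the miR-92/25 family. The ratio of the KO to the WT mean went from 1.39 to 1.06, from 1.98 to 1.31, from 4.10 to 2.73 and from 0.913 to 0.740 in this order. The cause was not tested. Without Mir150 in the total, the miR-17 family differed by 0.426 and the miR-92/25 family by -0.141 (-0.0307 with it). The share of features with a count was 0% in the exon class of the 7 genes at 0, whichever library was left out. Outside exons it was 15.4% to 17.2%. These shares were an alternative added after seeing the data, as were all fits that combine no filter with another change. With a replicate block, the log2 fold change was -0.13 for Mir92-2 (adjusted p = 0.997 with edgeR), 3.21 for Mir20b and 0.48 for Mir106b without a filter, and no call changed. Same-numbered WT and KO libraries deviated together in 2 of 3 pairs (r over 0.1). Over all genes, r was 0.20, 0.081 and 0.17 for same-numbered libraries and -0.20 to 0.044 for differently numbered ones. Among miRNA features it was -0.090, 0.43 and 0.35, against -0.47 to 0.13. The labels state no pairing and the main fits used none. Whether the numbers mark a shared batch was not tested.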
